A study of Rattus norvegicus with 4 samples.

Results

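S100 genes encode small calcium-binding proteins, and 10 of them were followed here in rat pancreas under 3 levels of dietary iron: S100g, S100a8, S100a9, S100a1, S100a4, S100a6, S100a10, S100a11, S100a13 and S100b. Their probes were found by gene symbol, which gave 11 of the 30367 gene probes on the array, 1 for each gene and 2 for S100b. The family was chosen by measured values, the FeD and FeO ratios of these same arrays, in which S100g had stood out, so every ratio of a member is given as a description. Weanling male Sprague-Dawley rats ate an iron-deficient (FeD, 5 ppm iron), iron-adequate (FeA, 35 ppm) or iron-overload (FeO, 20275 ppm) diet for 3 weeks. Pancreas RNA of 6 rats was combined into 1 pool per diet. Each of the FeD and FeO pools was hybridised to 2 arrays that held the FeA pool in the other colour, and the Cy3 and Cy5 dyes were exchanged between the 2. Both arrays of a comparison held the same RNA, so their difference is technical, the spread among rats is not measured, and no test of the diets was possible. The FeA pool serves in both comparisons.

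An S100 protein folds around a pair of calcium-binding loops called EF-hands, and most members act as dimers that bind partner proteins when calcium rises. S100g, also called calbindin-D9k, is an exception that works alone as a calcium buffer, and it is best known from the absorptive cells of the duodenum, where vitamin D raises it. S100a8 and S100a9 form calprotectin, a zinc- and manganese-binding complex of neutrophils. S100a4, S100a6, S100a10 and S100a11 are made by many cells with a mesenchymal or motile character, S100a10 and S100a11 mainly as partners of annexins. S100b is the classic marker of glia, Schwann cells included, and is also made by adipocytes. S100a1 is a regulator of calcium handling in heart and skeletal muscle, and S100a13 takes part in the release of proteins that lack a signal peptide.

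The deposited intensities had a median spot signal between 115 and 222.5 per channel over a local background between 50 and 87. Acinar genes, 14 of 14 on a list of digestive enzymes and granule proteins, and islet genes, 10 of 10, were well above background in every pool in the labelled pancreas. Their median log2 ratios in FeD and FeO were 0.14 and -0.25 for acinar genes (9 of the 14 measured on both FeO arrays), -0.17 and -0.27 for islet genes, and 0.03 and -0.03 for 7 passing duct genes. Of the acinar genes 11 were saturated in 1 or more channels, which limits their ratios. Single genes went further in FeO, with means of 1.14 for Gcg, -1.19 for Ppy and -1.02 for Iapp among islet hormones, and of -0.98 for Krt19 and -0.88 for Spp1 among duct genes. Ratios below are log2 of the diet pool over the FeA pool, array 1 being the array with the diet pool in Cy5 and array 2 the one with it in Cy3. A probe passed the filter when the diet pool or the FeA pool was well above background on both arrays. Across the 15223 genes that passed in both comparisons, arrays of the same dye orientation were closer to each other (Pearson r = 0.55 for arrays 1 and 0.66 for arrays 2) than the swapped arrays of 1 comparison (r = 0.18 in FeD and 0.41 in FeO). The Spearman rho was 0.50 and 0.64 against -0.07 and 0.12. These correlations are across genes, which share arrays and dyes and are not replicates. Dye orientation therefore accompanies many small ratios, and each member is given on both arrays.

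S100g was the member that stood apart. Its log2 ratio was -4.39 and -4.49 on the 2 arrays of FeD, with a mean of -4.44 ± 0.07 (SD of 2 technical arrays), or 21.7-fold lower than FeA. In FeO the ratios were -4.83 and -4.71, with a mean of -4.77 ± 0.09, or 27.3-fold lower. These were the lowest mean ratios of all 15705 genes that passed in FeD and of all 16414 that passed in FeO, some of which have only a bound because the diet pool was not well above background, as Fabp1 in FeO. Among genes with both pools well above background on both arrays, S100g was lowest of 14412 in FeD and of 15039 in FeO. These ranks belong to the main processing alone and were not computed under the alternatives. In the paper's own lists Fabp1 and Prap1 were lower than S100g in both diets. The raw spot signal of S100g in the FeA pool was 3538, 6176, 3326 and 5692 over local backgrounds between 56 and 89. In the FeD pool it was 367 over 84 in Cy5 and 152 over 59 in Cy3, and in the FeO pool 278 over 89 in Cy5 and 142 over 50 in Cy3. The probe was above background in every channel, so the ratios are measured values and not bounds. On the normalized log2 intensity scale the 4 FeA measurements lay between 12.05 and 12.23, those of FeD were 7.66 and 7.73, and those of FeO were 7.38 and 7.53. The pools did not overlap, and the ratio in FeO minus that in FeD was -0.44 with the diet pools in Cy5 and -0.22 with them in Cy3. In whole tissue, fewer cells that hold a transcript and less transcript per cell cannot be told apart.

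Past a log2 ratio of 2 in size, S100g was the 1 member lower in FeD, where 0.0828% of all genes were, and the 1 member lower in FeO, where 0.128% of all genes were. At a log2 ratio of 1 it stayed the 1 lower member of the 8 that passed in FeD (0.242% of all genes) and of the 9 that passed in FeO (0.481%). No member was higher by a log2 ratio of 1 in FeD (0.127% of all genes), and S100b was in FeO (0.670%). The probes of S100a8, and of S100a9 in FeD, did not pass, and the second S100b probe passed in neither comparison.

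**Figure D1:**
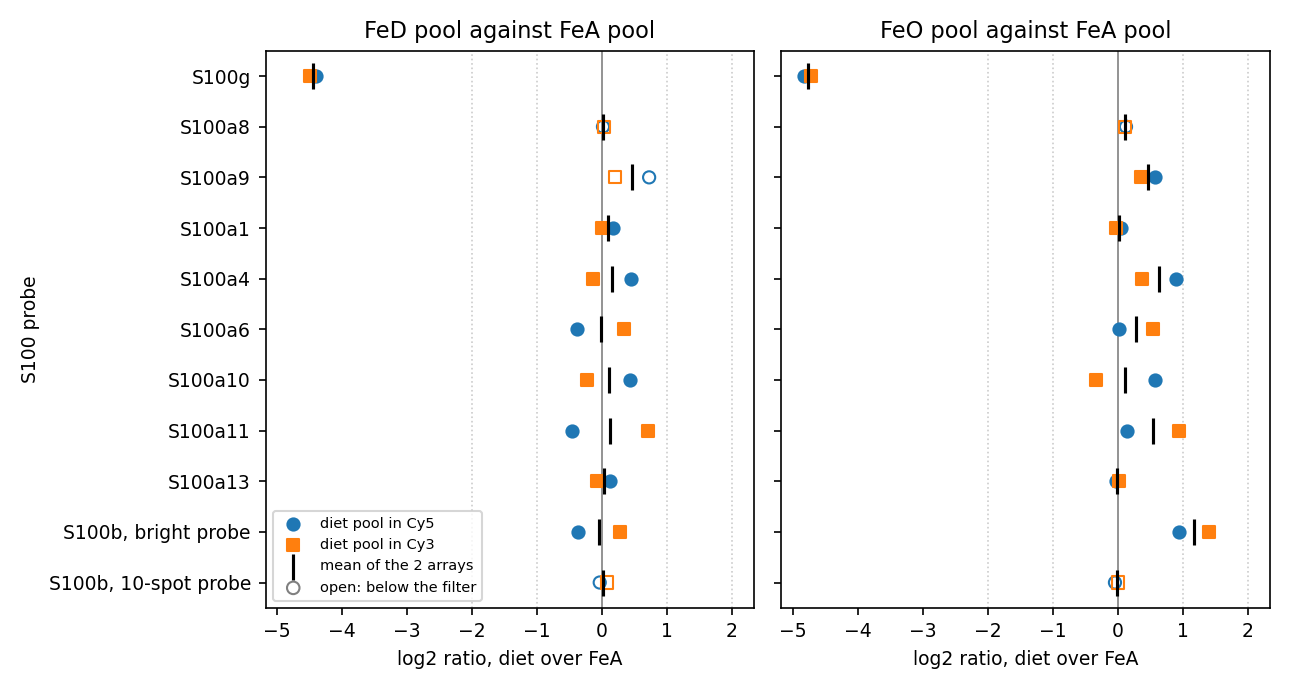
Log2 ratio of each S100 probe (rows) in the FeD pool and the FeO pool over the FeA pool (x axes). Circles and squares are the 2 arrays with the diet pool in Cy5 and in Cy3, the bar is their mean, open marks did not pass the filter and dotted lines mark log2 ratios of 1 and 2. S100g lies at -4.44 and -4.77, S100b at 1.17 in FeO, and several members have their arrays on opposite sides of 0.

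S100g in the gut works with the calcium entry channel Trpv6, the vitamin D receptor Vdr and the calcium pump Atp2b1, and these genes were examined with 10 others of vitamin D action and calcium transport. Of the 13 genes, 6 passed in FeD and 7 in FeO, with a median log2 ratio of -0.13 and -0.06 beside 0.01 over all genes. Cdh17, a cadherin of intestinal epithelium, was the 1 gene past a log2 ratio of 1, with -1.70 and -1.53 in FeD. In the FeO pool Cdh17 did not clear the background, which leaves a bound of 3.54-fold lower, equal to its ratio. Trpv6 fell to the background limit in each diet pool, and its bounds were at least 1.31-fold lower (FeD) and at least 1.29-fold lower (FeO). Cldn2, which forms a paracellular cation channel, was at least 1.45-fold lower in FeO. Vdr reached the background limit on 1 of 2 arrays in each pool, and Atp2b1, detected throughout, had mean ratios of -0.10 and -0.01. The vitamin D targets Cyp24a1 and Calb1, the larger calbindin, were not well above background in any pool.

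A part of the genes of intestinal absorptive cells was lower beside S100g. Of 16 on the list, 12 passed in each comparison, 6 were lower by a log2 ratio of at least 1 in each and none was higher. Over all genes 0.242% were lower by that size in FeD and 0.481% in FeO. The median was -1.05 in FeD and -1.19 in FeO, against 0.01 over all genes. Fabp1, Fabp2, Muc13 and Cdhr5 entered these counts and medians through the FeA pool alone, where they were brighter. Prap1, a secreted protein of gut epithelium, had -4.02 and -3.77 in FeD, and -4.65 and -4.25 in FeO. Lgals4, the gut lectin galectin-4, had -2.29 and -1.94 in FeD and -3.85 and -3.35 in FeO. Krt20, an epithelial keratin, had -1.18 and -1.14 in FeD and -1.65 and -1.83 in FeO. Fabp1, a fatty acid carrier of enterocytes and hepatocytes, was at least 22-fold lower in FeO, and its ratios in FeD, where 1 of the 2 arrays detected it, were -4.68 and -3.74. For Fabp2, the intestinal fatty acid carrier, the bounds were at least 6.77-fold lower (FeD) and at least 6.35-fold lower (FeO). The defining brush border genes did not all follow: Vil1 had means of -0.19 and -0.13, Anpep of -0.21 and -0.08, and Si and Mep1a were not well above background in any pool. The summed normalized intensity of the 16 genes was 9758 to 10464 in the FeA measurements, 3396 to 3585 in FeD and 3101 to 3305 in FeO. The part of such cells in the S100g ratio was not tested.

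Over the 4 array ratios of the 15223 genes that passed in both comparisons, the 5 genes nearest to S100g by Euclidean distance were Prap1 (distance 0.95), Fabp1 (1.07), the transcript listed as TC595358 (1.70), LOC691259 (1.73) and Lypd8l2 (1.82). TC595358 had mean ratios of -3.39 in FeD and -4.50 in FeO, and LOC691259 of -3.30 and -4.36. Lypd8l2 had a mean of -3.70 in FeD, and the bound in FeO was at least 17.1-fold lower. Distance here is in log2 units, and no other member had a ratio in this range.

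S100b was measured by 2 probes that behaved differently. The probe A_64_P109327, above background in every channel, gave log2 ratios of 0.95 and 1.40 in FeO, with a mean of 1.17 ± 0.32, or 2.26-fold higher than FeA. In FeD it gave -0.36 and 0.28, with a mean of -0.04 ± 0.45, so the 2 arrays disagreed in sign. On the normalized log2 scale S100b lay between 7.97 and 8.37 in the 4 FeA measurements, at 8.0 and 8.41 in FeD, and at 9.29 and 9.37 in FeO. Both FeO values exceeded every FeA and FeD value, while FeD and FeA overlapped. From the highest, its mean ratio in FeO was rank 67 of 16414. The other probe, A_43_P15530, averaged over 10 spots, never rose well above background, and its ratios lay between -0.04 and 0.08. Both probes carry the same RefSeq accession, and the dim probe gives no level to set against the bright one.

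S100b is made by glia and by adipocytes, and the 2 cell types were followed by lists of their genes. Of 12 adipocyte genes on the array all 12 passed in FeO, 11 were higher on both arrays and 7 were higher by a log2 ratio of at least 1, with a median of 1.51. Over all genes in FeO, 27.7% were higher on both arrays and 0.670% were higher by a log2 ratio of at least 1. Plin1 entered these counts through the FeO pool alone, where it was brighter. Cfd, the adipocyte protease adipsin, had ratios of 2.20 and 2.41, Car3, an abundant carbonic anhydrase of fat, 2.04 and 2.25, Adipoq, the hormone adiponectin, 1.97 and 2.17, and Cidec, a lipid droplet protein, 1.48 and 2.35. In FeD the median over 11 adipocyte genes was -0.03 and none passed a log2 ratio of 1. Lep, the hormone leptin, had -0.11 and 0.31 in FeO, with a mean of 0.10, but its FeA level ranged over 1.46 on the log2 scale. Of 17 Schwann and glial genes 12 passed in FeO, none by a log2 ratio of 1, with a median of 0.02. Of these 12, 3 were higher on both arrays and 1 was lower, and the mean ratios lay between -0.13 and 0.49. Sox10, a defining transcription factor of glia, had a mean ratio of -0.02 in FeO. Summed over the list, normalized intensity of the adipocyte genes was 10312 to 13344 in FeA, 9536 to 10654 in FeD and 41728 to 42497 in FeO. For the Schwann and glial genes the sum was 3755 to 4460 in FeA, 4258 to 5023 in FeD and 3960 to 4476 in FeO. The FeA levels of Lep and of some bright genes on the Schwann and glial list repeated poorly between arrays, which limits these sums. The part of either cell type in the S100b ratio was not tested.

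**Figure D2:**
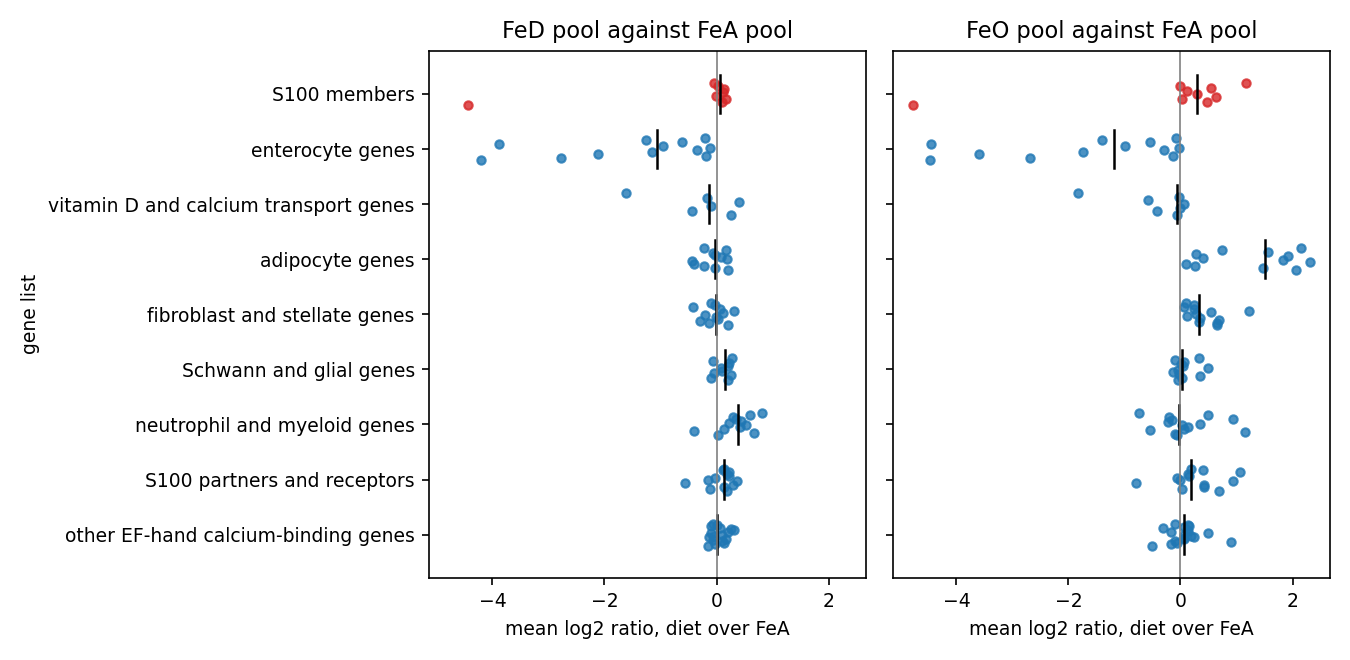
Mean log2 ratio over FeA (x axes) of the S100 members that passed the filter (red) and of the passing genes of 8 lists (blue), each dot 1 gene and each black bar the list's median, in FeD and FeO. Enterocyte genes reach down to -4.21 and -4.47 beside S100g, and adipocyte genes have a median of 1.51 in FeO, where S100b is the highest member at 1.17.

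S100a11, a partner of annexin A1, had levels that differed with the dye. Its ratios were -0.46 and 0.72 in FeD and 0.14 and 0.95 in FeO, with means of 0.13 ± 0.83 and 0.54 ± 0.57. The FeA pool gave 8.78 and 8.77 on the normalized log2 scale in Cy3 but 8.26 and 8.24 in Cy5. In FeO the level was 8.91 in Cy5 and 9.18 in Cy3, above the FeA values of either dye. In FeD it was 8.32 in Cy5 and 8.98 in Cy3, which overlapped the FeA values. Set against FeA in the same dye, across arrays, S100a11 differed by 0.66 and 0.41 in FeO and by 0.07 and 0.21 in FeD.

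S100a6, or calcyclin, followed the same pattern at a smaller size. Its ratios were -0.38 and 0.35 in FeD and 0.02 and 0.55 in FeO, with means of -0.01 ± 0.52 and 0.29 ± 0.37. FeO reached 11.29 and 11.55 on the normalized log2 scale and FeA 10.89 to 11.26, so the 2 pools did not overlap but lay close. The ratio of 0.02 on FeO array 1 was smaller than the median gap between the arrays over all genes, 0.23. The share of all genes whose levels separate in this way was not counted, here or for S100g, S100b and S100a11. Against FeA in the same dye the FeO differences were 0.34 and 0.31, and those of FeD were -0.10 and 0.00.

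S100a4, called fibroblast-specific protein although other cells make it, had a ratio of 0.45 and -0.13 on the FeD arrays and of 0.90 and 0.38 on the FeO arrays. The FeO mean was 0.64 ± 0.37 and the FeD mean 0.16 ± 0.41. The repeated FeA measurements of S100a4 were 9.99, 10.14, 8.80 and 9.80, a range of 1.34 that was wider than for any other member. In Cy3 alone the FeA pool differed by 1.19 between arrays, whereas the 90th percentile of this difference over all genes was 0.41. On the array with the low FeA value both channels were dimmer, with raw signals of 1194 for FeO and 320 for FeA, against 2327 for FeD and 847 for FeA on the matching FeD array. Of the FeO levels, 9.70 lay within the FeA range and 10.18 just above it, and against FeA in the same dye they differed by -0.27 and 0.78, in opposite directions. Of the FeD levels, 10.44 lay above the FeA range and 10.01 within it. Against FeA in the same dye the FeD levels differed by 0.47 and 0.62, both upward. The Cy3 differences, 0.78 and 0.62, include the low FeA value.

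S100a10, the light chain that binds annexin A2, gave 0.44 and -0.22 on the FeD arrays and 0.57 and -0.33 on the FeO arrays, opposite in sign between arrays in both comparisons. Its FeA level repeated within 0.15, from 9.60 to 9.75. S100a1 gave 0.17 and 0.01 in FeD and 0.06 and -0.03 in FeO, and S100a13 gave 0.13 and -0.07 in FeD and -0.03 and 0.02 in FeO. Both genes were above background in every channel, and their mean ratios stayed between -0.01 and 0.09. Their raw signals lay between 228 and 1522 over the channels.

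**Figure D3:**
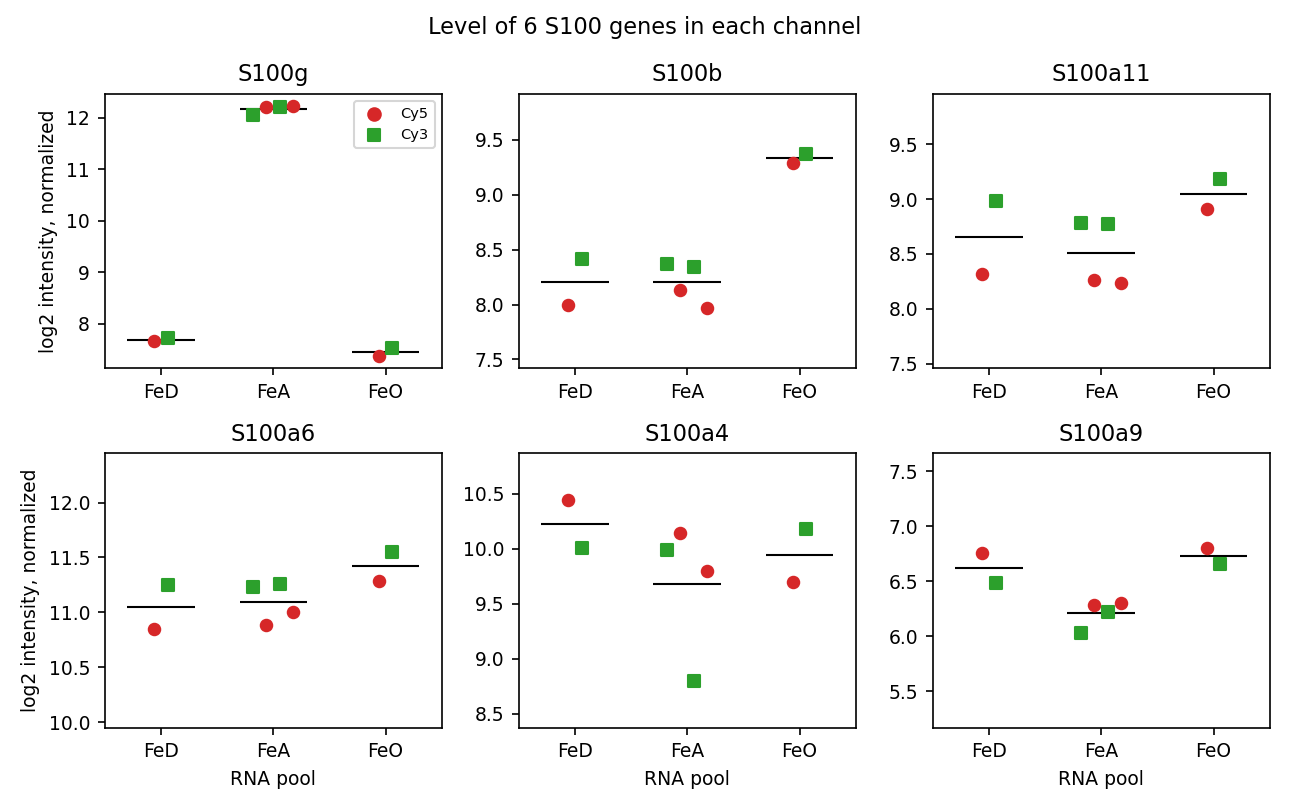
Normalized log2 intensity (y axes) of 6 S100 genes in the FeD, FeA and FeO pools, with 1 point per channel (circles Cy5, squares Cy3) and a bar at the mean of 2 FeD, 4 FeA or 2 FeO measurements. FeA lies above both diets for S100g, FeO above FeA and FeD for S100b, and 1 FeA value of S100a4 lies at 8.80; panels have their own y ranges, so levels are compared within a gene.

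In FeD, 1 of the 8 passing members was higher on both arrays (S100a1) and 1 was lower on both (S100g), against 25.0% and 21.3% of all genes. The other 6 had opposite signs on the arrays, as had 53.7% of all genes. In FeO, 5 of 9 were higher on both arrays (S100a9, S100a4, S100a6, S100a11 and S100b), against 27.7% of all genes, and 1 was lower on both (S100g), against 24.3%. S100a9 entered this count through the FeO pool alone, where it was brighter. The gap between the arrays exceeded the 90th percentile of all genes for 4 members in FeD (S100a6, S100a10, S100a11 and S100b, percentile 0.59) and for 2 in FeO (S100a10 and S100a11, percentile 0.62).

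FeO can be set against FeD within a dye orientation, since within an orientation both comparisons had the FeA pool in the same dye. S100b was higher in FeO than in FeD by 1.31 on arrays 1 and 1.12 on arrays 2. The differences were 0.45 and 0.51 for S100a4, 0.60 and 0.22 for S100a11, and 0.41 and 0.20 for S100a6. S100g was lower in FeO by these measures, as was S100a1 at -0.11 and -0.04. S100a10 and S100a13 changed sign between orientations. Thus 4 of 8 members were higher in FeO in both orientations, where 34.6% of all genes were, and 2 were lower, where 33.3% were. The median difference between the orientations over all genes was 0.14, so the values of S100a1 lie within the usual technical gap. Of the S100a4 values, 0.45 uses the array whose spot was dim and 0.51 does not. By level, with the diet pools in Cy5, S100a4 was 10.44 in FeD and 9.70, on the dim array, in FeO. With them in Cy3 it was 10.01 and 10.18, so the order of the diets by level changed with the orientation.

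**Figure D4:**
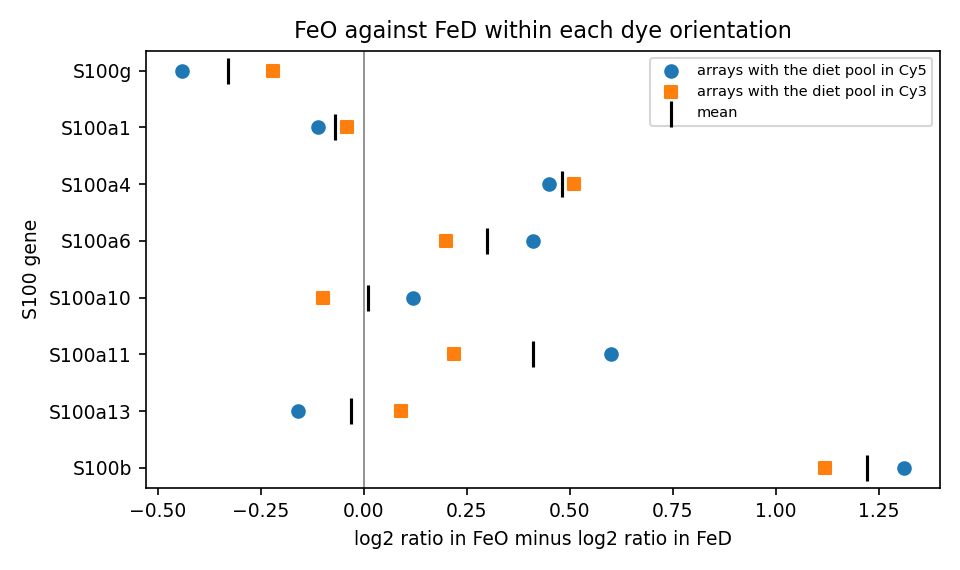
Log2 ratio in FeO minus log2 ratio in FeD (x axis) for the 8 S100 genes that passed in both comparisons (rows), with circles for the arrays with the diet pool in Cy5, squares for those with it in Cy3 and a bar at the mean. S100b lies at 1.31 and 1.12, S100a4, S100a6 and S100a11 lie above 0 in both orientations, and S100g lies below 0.

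In the current rat assembly, GRCr8, S100a1, S100a13, S100a4, S100a6, S100a8 and S100a9 lie in a single run of S100 genes on chromosome 2, and S100a11 and S100a10 are neighbours further along it. S100b is on chromosome 20 and S100g on chromosome X. RefSeq promoters of GRCr8, from 250 bases before to 50 bases after the start, were found for 6 of the 10 members, S100a9, S100a4, S100a6, S100a11, S100a13 and S100b. The 3 of these with the highest mean ratio in FeO are printed 5′ to 3′ on the gene's strand. They are S100b at chr20:12381032-12381331 (minus strand), S100a4 at chr2:178388279-178388578 (plus strand) and S100a11 at chr2:181874882-181875181 (plus strand). Capitals mark every match, on either strand, to the TATA box TATAAA, the CCAAT box CCAAT and the GC box GGGCGG.
S100b: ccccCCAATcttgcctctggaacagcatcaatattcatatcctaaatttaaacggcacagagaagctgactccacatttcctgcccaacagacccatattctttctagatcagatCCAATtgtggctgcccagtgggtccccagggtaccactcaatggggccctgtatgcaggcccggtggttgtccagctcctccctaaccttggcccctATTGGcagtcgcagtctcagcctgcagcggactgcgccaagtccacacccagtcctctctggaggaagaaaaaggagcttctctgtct
S100a4: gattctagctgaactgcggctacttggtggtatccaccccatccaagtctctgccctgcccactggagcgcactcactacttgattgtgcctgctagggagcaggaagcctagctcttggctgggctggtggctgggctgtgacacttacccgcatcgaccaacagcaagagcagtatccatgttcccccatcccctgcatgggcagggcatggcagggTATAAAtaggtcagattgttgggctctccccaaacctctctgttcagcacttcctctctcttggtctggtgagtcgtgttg
S100a11: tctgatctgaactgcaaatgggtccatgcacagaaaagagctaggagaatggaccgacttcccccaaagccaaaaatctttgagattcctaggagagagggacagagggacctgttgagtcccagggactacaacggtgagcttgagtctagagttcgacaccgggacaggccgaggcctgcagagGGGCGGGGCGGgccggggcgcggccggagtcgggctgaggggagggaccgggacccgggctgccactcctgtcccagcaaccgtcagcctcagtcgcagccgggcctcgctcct
S100b has 3 CCAAT boxes, starting 246, 135 and 38 bases before the start, the last on the opposite strand, and S100a4 has 1 TATA box 31 bases before it. S100a11 has 2 GC boxes, 64 and 59 bases before the start, which share 1 base. Of 33469 rat promoters of this length 14.2% hold TATAAA, 37.5% CCAAT and 33.1% GGGCGG on either strand. S100a9, whose promoter is not printed, has 1 TATA box 42 bases before its start. A match of letters is a description of the sequence and not a bound site.

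S100a11 has near relatives in the genome, 2 annotated as protein coding and 5 as pseudogenes, and the array carries loci that the deposited tables describe as similar to S100a11. RGD1563581 gave -0.57 and 0.72 in FeD and 0.05 and 1.19 in FeO, and RGD1565648 gave -0.31 and 0.58 in FeD and -0.05 and 0.94 in FeO. The 3 probes thus gave the same order of arrays. How far they bind each other's RNA was not tested, so the S100a11 values are uncertain as to the copy.

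S100a9 was dim. Its ratios were 0.73 and 0.20 in FeD and 0.58 and 0.36 in FeO, with means of 0.47 ± 0.37 and 0.47 ± 0.16. The FeA pool was not well above background on any array, the FeD pool was on 1 of 2, and the FeO pool on both. The raw signal in FeO was 160 over a background of 76.5 in Cy5 and 95.5 over 48 in Cy3. What the FeO signals allow is a bound, by which S100a9 was at least 1.32-fold higher than in FeA on the mean of the 2 arrays. The same calculation gives 1.28-fold for FeD. It includes an array on which the FeD pool was not well above background, so it is not a lower limit. The size of the ratio depended on the background correction: the scanner software's processed signals gave 2.74 in FeD and 1.96 in FeO, and normexp with an offset of 0 gave 1.38 and 1.18. S100a8, its partner in calprotectin, never rose well above background, with ratios between 0.02 and 0.13, and no fold can be given for it.

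Neutrophil and myeloid genes stood beside S100a9 as follows. Of 23 on the list, 12 passed in FeD and 14 in FeO, with medians of 0.38 and -0.02. In FeD 10 were higher on both arrays and 1 lower, and in FeO 5 were higher and 5 lower. The granule genes Elane, Ltf and Mmp8 and the surface marker Cd177 were not well above background in any pool. Mpo, the enzyme of their primary granules, was detected in both pools of the FeO arrays with a mean of -0.07, and in FeD on 1 array. The FeA pool itself read 6.32 and 6.35 for Mpo on the FeD arrays but 8.25 and 8.29 on the FeO arrays. Detection of Mpo thus differed between arrays that held the same FeA pool, and cannot be read as a difference between diets. Lcn2, an iron-scavenging protein of neutrophils and of stressed epithelium, was detected throughout, with 0.52 and 0.80 in FeD and 0.78 and 1.51 in FeO. Ngp, a neutrophil granule protein that was also detected throughout, had -0.36 and -0.44 in FeD and -0.40 and -0.70 in FeO. Ptprc, the leukocyte antigen CD45, was higher in FeD (0.79 and 0.84) and lower in FeO (-0.71 and -0.77), Lyz2, a lysozyme of macrophages, had 0.86 and 0.34 in FeD and 0.19 and -0.62 in FeO, and Cd14, a monocyte receptor, had 1.07 and 0.80 in FeO. The list's summed normalized intensity was 5694 to 13571 in FeA, 16073 to 18425 in FeD and 6613 to 10657 in FeO, most of it from Lyz2, whose FeA level alone ranged over 2.04 on the log2 scale. Without Lyz2 the sum of the 22 other genes was 3317 to 3965 in FeA, 4793 to 5112 in FeD and 3902 to 4308 in FeO. That sum still holds Itgam and Mpo, whose FeA levels ranged over 1.43 and 1.97 on the log2 scale, which limits it too. The part of these cells in the S100a9 values was not tested.

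The 5 genes nearest to S100a9 over the 4 ratios were Vsir, an immune checkpoint receptor (distance 0.13), Efcab4b, itself an EF-hand protein (0.15), the transcripts listed as ENSRNOT00000018362 (0.20) and ENSRNOT00000060718 (0.21), and Pcmtd2 (0.21). S100a9 itself carries the background limit given above.

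Partners and receptors of S100 proteins were 16 genes, of which 13 passed in each comparison, with a median of 0.14 in FeD and 0.19 in FeO. In FeO 7 were higher on both arrays, 1 was lower and 1 passed a log2 ratio of 1. That gene was Cd36, a scavenger receptor and fatty acid carrier that binds the S100a8 and S100a9 complex, with 1.13 and 0.99. Cd36 is abundant in fat, whose genes are given above. Ahnak, a giant scaffold bound by S100a10 and S100b, had 0.20 and 0.54 in FeD and 0.89 and 0.98 in FeO. Anxa1, the partner of S100a11, had 0.84 and 0.53 in FeO, whereas Anxa11, which S100a6 binds, was lower in both, at -0.36 and -0.75 in FeD and -0.46 and -1.12 in FeO. Anxa2, the partner of S100a10, had mean ratios of -0.11 and 0.02. Ager, the receptor RAGE, had means of 0.18 and 0.14, and Tlr4, a receptor of calprotectin, was above background in each diet pool on 1 of 2 arrays.

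Fibroblast and stellate cell genes, relevant to S100a4 and S100a6, had a median of -0.02 over 12 genes in FeD and of 0.33 over 13 in FeO, where 10 were higher on both arrays and none was lower. Fn1, or fibronectin, had 1.38 and 1.06 in FeO, Col3a1 0.52 and 0.87, Vim 0.32 and 0.99 and Col1a1 0.50 and 0.80. The summed normalized intensity of the 14 genes was 16058 to 18580 in FeA, 15197 to 16063 in FeD and 24337 to 25766 in FeO. Their part in the S100a4, S100a6 and S100a11 ratios was not tested.

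Other S100 genes and other EF-hand genes gave smaller values. S100a16, detected in every channel, gave -0.17 and 0.34 in FeD and -0.15 and 0.46 in FeO, again with opposite signs on the swapped arrays. S100a5, known from olfactory sensory neurons, had 0.31 and 0.04 in FeD and -0.46 and -0.34 in FeO by its brighter probe, and its other probe was not well above background in FeO. LOC685385, described in the deposited tables as similar to S100a14, had -0.38 on both arrays of FeO and 0.14 and -0.16 in FeD. Of 3 fused-type genes on the array, long skin proteins that begin with an S100 domain, none passed in FeD, and Rptn passed in FeO with a mean of -0.05. S100a3, S100z, S100a7a, S100a7l2 and S100vp passed in neither comparison. Of 20 other EF-hand genes 17 passed in FeD and 19 in FeO, with medians of 0.01 and 0.07. None of them passed a log2 ratio of 1 in either direction. Calml3, a calmodulin-like protein detected only in FeO, was 1.87-fold higher there, a bound equal to its ratio. The median over the passing S100 members themselves was 0.06 in FeD and 0.29 in FeO, beside 0.01 over all genes. Without S100a9, which passed through the FeO pool alone, the FeO median was 0.20 over 8 members.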

How the data were processed

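RNA pools of rat pancreas were compared on Agilent two-colour arrays. The intensity values were deposited by the authors as the scanner's Feature Extraction software (10.1.1.1) wrote them: median spot and local background signals, uncorrected, and processed signals, which the software background-subtracted, detrended and dye-normalized. The labels number the arrays as slides 1 to 4, whereas the file headers give all 4 the same slide. The log2 fold changes, p-values and q-values in the authors' deposited tables were not used; their symbol columns were, to name probes. RefSeq accessions named 59.3% of probes, the authors' symbol columns 16.3% and the array file 24.4%.

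The limma package (3.58.1, under R 4.3.3) gave ratios from median signals by normexp with an offset of 50, loess within each array and removal of outlier spots (722, 938, 764 and 735). Spots of a probe were averaged, and a probe was well above background when more than 50% of its spots were. Channel levels were scaled by Aquantile. A gene was represented by its brightest probe. A bound sets the brighter pool's mean level against the dimmer pool's, taken per array as its own level or the lowest level well above background in that channel, whichever is higher, and it is open to dye bias. Where the dimmer pool's own level is the higher, as for Calml3 and Cdh17 in FeO, the bound equals the ratio. The lowest level is that of 1 probe and not a detection limit, so a bound is not a strict lower limit. Genes were called by a mean log2 ratio of 2 (the methods' size) or 1, with the same sign on both arrays. Normalization was tested on simulated data. Counts, bounds and distances were computed with scipy 1.17.1, numpy 2.4.6 and pandas 2.3.3 under Python 3.11.15.

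The members, the 13 gene lists and the rules were chosen with earlier results of these data known. All member probes are named, then other S100 genes where detected, the defining genes and up to 4 genes with the largest ratios of each list, and the 5 genes nearest to S100g and S100a9. Other genes of a list are named where they partner a member, define a cell type or passed the filter through a single pool. They were chosen after their values were seen. Alternatives were other background corrections and normalizations, other filters, any probe, the methods' t-test, and each array left out. Of the Schwann and glial list only Sox10 is named, 2 genes are not reported here, and the list's counts, medians and sums include every member on the array.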

Additional observations from a re-analysis of the deposited data

Results flagged for a closer look

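A few genes moved one way on both arrays of FeD and the other way on both arrays of FeO, and the difference between the diets was not tested, since each diet is 1 pool. Among S100 genes this was S100a5, whose mean log2 ratio by its brighter probe was lower in FeO than in FeD (FeO minus FeD, -0.57). Its ratio on FeD array 2 was only 0.04. The other S100a5 probe, which did not pass, had opposite signs on the FeD arrays (-0.04 and 0.06). Among the genes set beside the members, Ptprc (-1.56) and the acinar protease Cela1 (-0.78) were lower in FeO than in FeD; the Cela1 probe was saturated in FeD on 1 array, which limits that value. The adipocyte genes Cfd (2.70) and Car3 (2.36) and the collagen gene Col1a1 (0.78) were higher in FeO than in FeD.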

How the results depend on the processing

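S100g was past a log2 ratio of 2 in both comparisons under every alternative except the methods' t-test with Benjamini-Hochberg adjustment, which left 0 members in FeD and in FeO at either size. That test placed 1564 probes in FeD and 1903 in FeO under its threshold before adjustment, and 1 and 0 after it. It compares the RNA pools by technical error. The mean ratio of S100g lay between -5.02 and -4.32 in FeD and between -5.53 and -4.61 in FeO over the background corrections and normalizations. Members past a log2 ratio of 1 in FeO numbered 1 to 2 with 1 array left out: without array 2 the S100b ratio is 0.95, so S100b falls below that size. They numbered 3 with an offset of 0 and with the processed signals, under which S100a9 joined. S100b in FeO lay between 1.12 and 1.33 over the corrections. With either array left out, the other 3 counts stayed at 1. Of 88 member probe values under the other corrections and normalizations, 65 moved by less than the SD of the 2 arrays and 23 by more; the signs of S100g in both diets and of S100b, S100a4, S100a6 and S100a11 in FeO were kept. Each ratio sets the diet pool against the FeA pool of the same array, whereas the methods' t-test was run with the channels unpaired. Both arrays of a comparison carry RNA of the same 2 pools, and no test of the diets was made. Limits are the single pool of 6 rats per diet, the dye effect, and background for S100a8 and S100a9.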
